A study of Mus musculus with 16 samples.

Results

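Transcript levels of 6 genes used as markers of liver tumours or premalignant liver cells in mice, Ly6d, Golm1, Cbr3, Scd2, Peg3 and Myc, were followed across 16 livers. The genes were taken by symbol from a table of 30199 genes, and each of the 6 had 1 entry. All 6 had a mean of at least 10 normalized counts (reads per gene divided by a size factor of the library) and were therefore among the 15263 genes tested. Polyadenylated RNA was sequenced from 1 piece of liver per mouse, from females aged 5 months, and each of 4 genotypes was represented by 4 mice. These were Ncoa5+/-Tip30+/- (heterozygous for a deletion of both genes), Ncoa5+/- (with Tip30+/+), Tip30+/- (with Ncoa5+/+) and wild type (Ncoa5+/+Tip30+/+). The NCOA5 protein modulates the activity of nuclear receptors. Tip30 is an alias of Htatip2, a candidate tumour suppressor gene. The labels describe the tissue as mainly hepatocytes and name no promoter or Cre line, so each mouse carried its deletions as a heterozygous allele for which no cell type restriction is given. Mice of 1 genotype were separate animals, numbered here in accession order.

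As background, a tumour marker is a transcript or protein whose level differs between tumour and healthy tissue, and the genes followed here do unrelated work in the cell. Ly6d encodes a small surface protein on a lipid anchor, Golm1 a membrane protein of the Golgi apparatus whose human counterpart (GP73) is measured in serum of patients with liver cancer, and Cbr3 an enzyme that reduces carbonyl groups with NADPH. Scd2 encodes a desaturase that places a double bond into saturated fatty acids, Peg3 an imprinted zinc finger protein made from the paternal allele, and Myc a transcription factor that drives growth and ribosome synthesis.

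Libraries held 24740706 to 37939978 reads assigned to genes. Htatip2 stood at 977 ± 104 normalized counts in Ncoa5+/-Tip30+/- livers, 2467 ± 358 in Ncoa5+/-, 781 ± 139 in Tip30+/- and 2058 ± 179 in wild type (SD, n = 4 each), so the Tip30 labels were borne out by the reads. Ncoa5 itself stood at 391 ± 23.5, 381 ± 35.1, 408 ± 29.7 and 426 ± 42.1 normalized counts in the same order of genotypes, too close together to check the Ncoa5 labels. In 4 libraries (Ncoa5+/- 1 and 4, wild type 1 and 2) Zhx2, a repressor of fetal liver genes, stood at 8.77 to 26.3 normalized counts, against 167 to 438 in the other 12, and results that change without these libraries are given with and without them. Leaving these libraries out keeps only Ncoa5+/- 2 and 3 and wild type 3 and 4 of their genotypes, so a call lost without them also rests on fewer mice. The part of Zhx2 in such losses was not tested. All 11 hepatocyte markers found in the table were above 0 in every library.

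Of the 6 genes, Ly6d was the 1 whose level differed between genotypes beyond the test's threshold. It rose in livers with the Ncoa5 deletion, 9.52-fold over both Tip30 backgrounds, and did not pass with the Tip30 deletion (log2 -0.68 ± 0.66, 95% confidence interval -2.09 to 0.73, adjusted p = 0.733 by limma). Golm1, Cbr3, Scd2, Peg3 and Myc passed in none of the 8 comparisons made, and their differences are given below as values with intervals.

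Ly6d (ENSMUSG00000034634, GRCm38 chromosome 15, 74762056 to 74763620, minus strand, 744 exon bases) lies in a cluster of Ly6 genes, relatives with a domain held together by disulfide bridges between cysteines. In humans LY6D is a surface protein of keratinocytes, and in mouse bone marrow Ly6d marks lymphoid progenitors committed to the B cell lineage. The coding sequences of Ly6d and of its neighbours Ly6e and Ly6a are shown because each of the 3 genes rose with the Ncoa5 deletion. Every cysteine codon is in capitals. The first 300 bases are given of each. Over its whole coding sequence Ly6d has 11 cysteine codons among 127 codons, Ly6e 10 among 136 and Ly6a 12 among 134, of which 10, 9 and 11 lie in the stretches shown, read 5′ to 3′ from the GENCODE transcripts of GRCm38.
Ly6d: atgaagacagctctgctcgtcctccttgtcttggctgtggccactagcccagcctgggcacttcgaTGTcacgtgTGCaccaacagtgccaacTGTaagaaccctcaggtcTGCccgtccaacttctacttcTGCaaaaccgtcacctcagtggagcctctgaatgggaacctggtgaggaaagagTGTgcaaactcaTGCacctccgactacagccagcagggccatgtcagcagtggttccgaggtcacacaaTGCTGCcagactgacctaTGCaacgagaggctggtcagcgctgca
Ly6e: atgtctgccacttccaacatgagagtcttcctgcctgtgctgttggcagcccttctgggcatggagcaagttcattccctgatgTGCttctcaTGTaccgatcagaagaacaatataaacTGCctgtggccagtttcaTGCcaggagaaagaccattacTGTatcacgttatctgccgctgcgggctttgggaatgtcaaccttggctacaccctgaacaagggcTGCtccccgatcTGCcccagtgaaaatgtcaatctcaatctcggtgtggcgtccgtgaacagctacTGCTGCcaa
Ly6a: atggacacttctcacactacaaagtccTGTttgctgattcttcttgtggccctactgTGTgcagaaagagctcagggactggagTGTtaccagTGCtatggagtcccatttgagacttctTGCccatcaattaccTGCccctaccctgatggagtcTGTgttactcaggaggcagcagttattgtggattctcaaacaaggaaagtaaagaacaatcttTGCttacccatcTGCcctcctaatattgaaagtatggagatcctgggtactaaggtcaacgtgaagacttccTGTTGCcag

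Ly6d stood at 21.4, 480, 328 and 123 normalized counts in the 4 Ncoa5+/-Tip30+/- livers and at 1070, 370, 72.9 and 494 in the 4 Ncoa5+/- livers. The values were 26.4, 11.0, 51.5 and 14.3 normalized counts in Tip30+/- livers and 27.6, 30.5, 20.6 and 17.2 in wild type. Thus 7 of the 8 livers with the Ncoa5 deletion lay above all 8 without it, and Ncoa5+/-Tip30+/- 1 lay among the livers without it. The level averaged 238 ± 206 in Ncoa5+/-Tip30+/-, 502 ± 418 in Ncoa5+/-, 25.8 ± 18.4 in Tip30+/- and 24.0 ± 6.14 in wild type (SD, n = 4 each). The spread within both groups with the deletion was itself wide, from 21.4 to 480 and from 72.9 to 1070 normalized counts.

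Over both Tip30 backgrounds the log2 difference of Ly6d with the Ncoa5 deletion was 3.25 ± 0.66 (SE, 95% confidence interval 1.84 to 4.66, adjusted p = 0.0114 by limma), and a 2-sided exact permutation test within backgrounds gave p = 0.00122. This was 1 of 6 genes called in that comparison, in which 7.89% of all tested genes were called. Without the 4 libraries low in Zhx2 the log2 difference was 2.87 and no longer passed (adjusted p = 0.0896 by limma). Between Ncoa5+/- and wild type the log2 difference was 3.83 ± 0.93 (adjusted p = 0.104 by limma), and between Ncoa5+/-Tip30+/- and wild type 2.57 ± 0.93 (adjusted p = 0.132). Ncoa5+/- livers did not overlap wild type for Ly6d, as for 3.25% of tested genes in the direction of higher levels, and the exact permutation p of 0.0286 is the smallest that 70 arrangements allow.

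The Ly6d difference between Ncoa5+/-Tip30+/- and Tip30+/- livers was 2.67 ± 0.93 on the log2 scale (adjusted p = 0.113 by limma). DESeq2 on the recovered reads passed 3 of these pairwise differences, at a log2 difference of 4.39 for Ncoa5+/- against wild type (adjusted p = 4.31e-05), 3.33 for Ncoa5+/-Tip30+/- against wild type (adjusted p = 0.00355) and 3.22 for Ncoa5+/-Tip30+/- against Tip30+/- (adjusted p = 0.00511). Without Ncoa5+/-Tip30+/- 1 the same 3 differences also passed in limma, at 3.83 (adjusted p = 0.0334), 3.47 (adjusted p = 0.0388) and 3.57 (adjusted p = 0.0355), and without Ncoa5+/- 3 the difference of Ncoa5+/- from wild type passed at 4.57 (adjusted p = 0.0415). Ncoa5+/-Tip30+/- against Ncoa5+/- gave -1.26 ± 0.93 (adjusted p = 0.688) and Tip30+/- against wild type -0.10 ± 0.93 (adjusted p = 0.988). In mean normalized counts the order was Ncoa5+/-, Ncoa5+/-Tip30+/-, Tip30+/- and wild type, where the 2 genotypes with the Ncoa5 deletion were not separated from each other beyond their spread, nor were the 2 without it.

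Mouse tags in the sample titles fall into a range under and a range over 4300, and the Ly6d difference was computed in each. Under 4300 the log2 mean was 3.22 higher in 4 livers with the Ncoa5 deletion (21.4 to 1070 normalized counts) than in 5 without it (11.0 to 51.5), and over 4300 it was 3.43 higher in 4 livers with it (72.9 to 494) than in 3 without it (14.3 to 20.6). In the liver with the exception, Ncoa5+/-Tip30+/- 1, Ly6e stood at 21394 normalized counts, against 4683 to 11189 in the 8 livers without the Ncoa5 deletion. Cd8a stood at 40.5 there, against 0.860 to 10.5, and Cdkn1a, a p53 target, at 1233, against 49.2 to 130. Genes that separate the deletion must place this liver with its group, so they do not check its label. Lynx1 (26.2) and Pvt1 (29.8), described below, lay within the ranges of those 8 livers, 15.6 to 37.5 and 5.12 to 31.7.

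**Figure D1:**
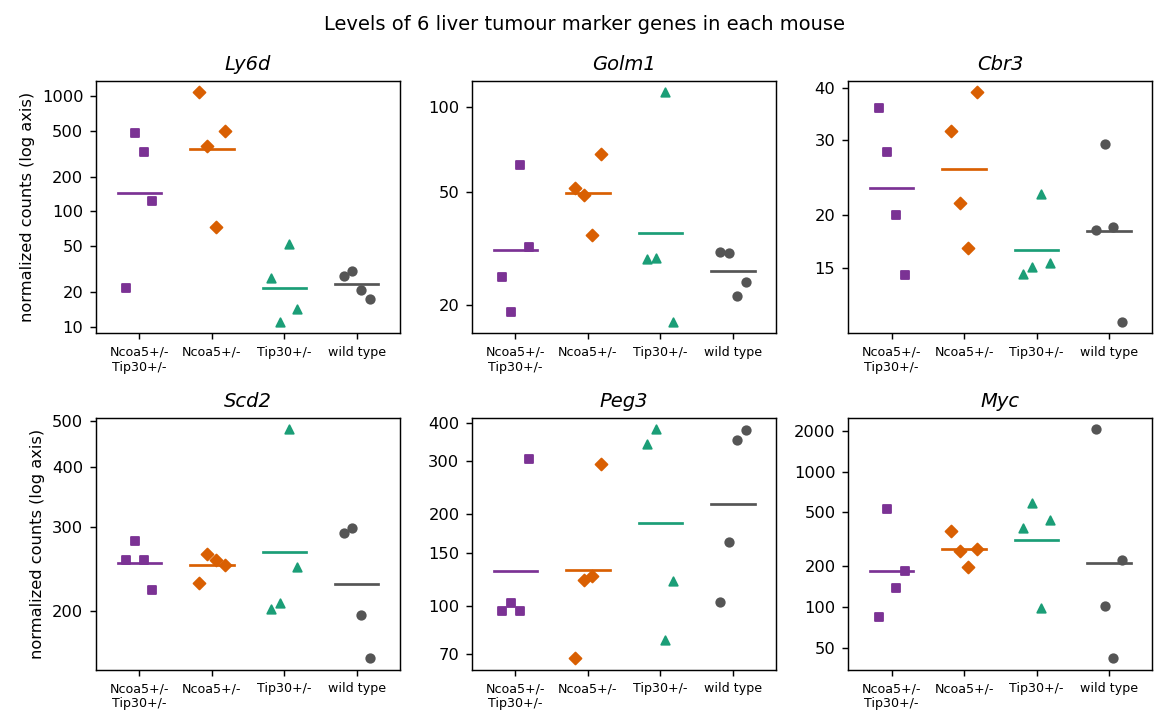
Normalized counts (log axis) of the 6 genes in each of 16 livers, by genotype on the horizontal axis; each point is 1 mouse and each line the geometric mean of 4. Ly6d sits between 72.9 and 1070 in 7 of 8 livers with the Ncoa5 deletion and between 11.0 and 51.5 in the 8 without it, while the genotypes overlap in the other genes, apart from Golm1 in Ncoa5+/- against wild type.

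Other genes of the Ly6 family rose beside Ly6d. Of 20 family members listed, 8 passed the filter on low values, and 3 of these rose with the Ncoa5 deletion while none fell (median log2 difference 0.25 over the 8, against -0.01 over all tested genes, of which 7.89% were called). Ly6e (chromosome 15, 74955051 to 74959905, plus strand), an interferon-induced gene, stood at 20757 to 32711 normalized counts in Ncoa5+/-Tip30+/- livers and 28205 to 33908 in Ncoa5+/-, against 4683 to 7072 in Tip30+/- and 5790 to 11189 in wild type. All 8 livers with the deletion lay above all 8 without it, as for 0.786% of tested genes, at a log2 difference of 1.98 ± 0.15 (adjusted p = 6.59e-07 by limma, exact permutation p = 0.000408, the smallest possible).

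Ly6a, which encodes the stem cell antigen Sca-1, stood at 158, 382, 320 and 164 normalized counts in Ncoa5+/-Tip30+/- livers and 74.3, 380, 181 and 171 in Ncoa5+/- livers. It stood at 48.6, 79.4, 69.0 and 71.7 in Tip30+/- livers and 36.8, 32.6, 63.7 and 41.3 in wild type, so that 7 of 8 livers with the deletion were above all without it (log2 1.92 ± 0.28, adjusted p = 0.00104 by limma). Lynx1, whose protein binds nicotinic acetylcholine receptors and whose gene lies next to Ly6d (74747852 to 74753046), rose less (log2 0.82 ± 0.23, adjusted p = 0.0371 by limma), a call lost without the libraries low in Zhx2 (0.83, adjusted p = 0.129) and in 11 of 16 fits that each left out 1 library (adjusted p up to 0.0773). The neighbours Them6 and Jrk gave 0.16 ± 0.12 (adjusted p = 0.410) and 0.04 ± 0.24 (adjusted p = 0.940). Ly6c1, a marker of monocytes and endothelium, gave -0.24 ± 0.24 (adjusted p = 0.563).

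**Figure D2:**
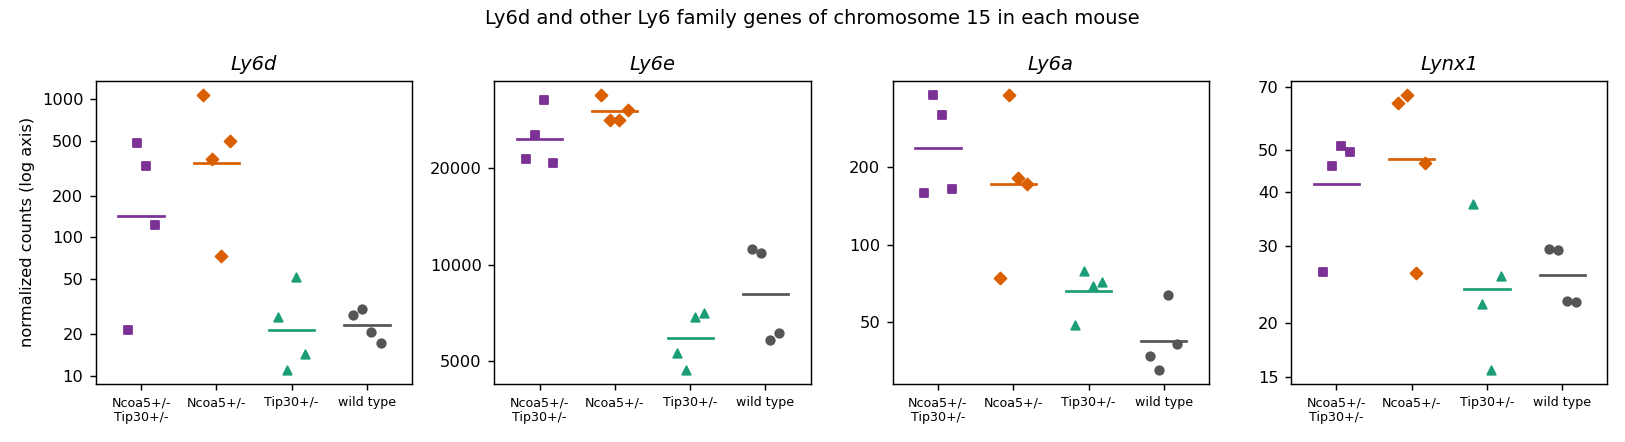
Normalized counts (log axis) of Ly6d, Ly6e, Ly6a and Lynx1 by genotype; points are mice and lines geometric means of 4. Ly6e stands at 20757 to 33908 in all 8 livers with the Ncoa5 deletion and at 4683 to 11189 in the 8 without it, with no overlap, whereas in Ly6d, Ly6a and Lynx1 the 2 sets of livers overlap.

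Because Ly6d and its relatives are also made by blood cells, markers of those cells were read in the same libraries. Of 10 tested T and NK cell markers 7 rose with the Ncoa5 deletion, against 7.89% of all tested genes called in either direction. They were led by Cd8a (log2 3.15 ± 0.37, adjusted p = 6.98e-05 by limma), Cd8b1 (2.79 ± 0.36, adjusted p = 0.000198), Nkg7 (1.41 ± 0.21, adjusted p = 0.000706) and Trac (1.47 ± 0.34, adjusted p = 0.0160). Cd8a averaged 49.6 normalized counts in Ncoa5+/-Tip30+/- and 59.2 in Ncoa5+/- livers, against 4.87 in Tip30+/- and 6.25 in wild type. The latter lie under the filter of 10, so Cd8a was tested only through the livers in which it is high. The 7 of 10 is therefore not a share of markers chosen without regard to the deletion. Summed over the 12 markers in the table the level was 164 to 371.6 normalized counts in Ncoa5+/-Tip30+/- livers, 236.5 to 381.8 in Ncoa5+/-, 98.31 to 140 in Tip30+/- and 61.07 to 165.1 in wild type. B and plasma cell markers gave no call among 12, with sums of 797.2 to 1967, 990.5 to 1570, 958.5 to 1729 and 1263 to 1797 normalized counts in the same order.

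Of 8 plasmacytoid dendritic cell markers 3 passed the filter, and of these Bst2, which hepatocytes also make under interferon, rose (log2 0.62 ± 0.12, adjusted p = 0.00508 by limma). Among tested markers of other cells, none of 11 for hepatocytes, 12 for macrophages, 12 for sinusoidal endothelium, 4 for neutrophils or 4 for erythroid cells passed with the Ncoa5 deletion. Their median log2 differences were -0.32 for hepatocytes (2 of 11 above 0), 0.40 for macrophages (11 of 12), 0.14 for sinusoidal endothelium (12 of 12), 0.75 for neutrophils (4 of 4) and 0.63 for erythroid cells (4 of 4), against -0.01 over all tested genes. In Ncoa5+/-Tip30+/- against wild-type livers the erythroid gene Alas2, which starts heme synthesis in red cell precursors, rose by 0.96 ± 0.23 (adjusted p = 0.0342 by limma), a call lost without the libraries low in Zhx2 (adjusted p = 0.106) and in 5 of 16 fits that each left out 1 library (adjusted p up to 0.115). Of 12 for stellate cells and fibroblasts the collagen genes Col1a1 (log2 0.97 ± 0.20, adjusted p = 0.0112 by limma) and Col3a1 (0.58 ± 0.17, adjusted p = 0.0492) rose, with the Col3a1 call lost with TMM scaling, without a filter, in edgeR and in 12 of 16 fits that each left out 1 library (adjusted p up to 0.106). The part of any blood cell type in the Ly6d result was not tested. In RNA of whole liver, more cells of a type and more RNA per cell cannot be told apart, here and in the results below.

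The genes most like Ly6d over the 16 libraries, by Pearson correlation of log2 levels among 10799 better expressed genes, were Tmem43 (r = 0.93, Spearman rho = 0.86), the lysosomal protease Ctsd (r = 0.90, rho = 0.85) and H2-T10 (r = 0.89, rho = 0.81). These values describe libraries that share genotype and depth and were not tested. Without Ncoa5+/- 1 and 4, the libraries farthest from the median of Ly6d, r was 0.91, 0.89 and 0.86. Tmem43 stood at 385, 732, 700 and 462 normalized counts in Ncoa5+/-Tip30+/- livers and at 694, 583, 481 and 705 in Ncoa5+/-, against 239 to 350 in the 8 livers without the Ncoa5 deletion.

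Golm1 (ENSMUSG00000021556, chromosome 13, 59634626 to 59675811, minus strand, 4424 exon bases) is made in healthy liver mainly by bile duct cells. It stood at 25.0, 18.8, 62.4 and 32.0 normalized counts in Ncoa5+/-Tip30+/- livers, 51.8, 48.9, 35.4 and 68.2 in Ncoa5+/-, 29.0, 29.1, 113 and 17.4 in Tip30+/- and 30.7, 30.5, 21.5 and 24.1 in wild type. All 4 Ncoa5+/- livers lay above all 4 wild-type livers, as for 3.25% of all tested genes, and the other genotypes overlapped with both. The means were 34.5 ± 19.3 in Ncoa5+/-Tip30+/-, 51.1 ± 13.5 in Ncoa5+/-, 47.1 ± 44.2 in Tip30+/- and 26.7 ± 4.61 in wild type (SD, n = 4 each).

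Ncoa5+/- differed from wild type by 0.89 ± 0.45 on the log2 scale (95% confidence interval -0.06 to 1.84, adjusted p = 0.531 by limma), with an exact permutation p of 0.0286. Of the 6 genes none was called in this comparison, in which 0.557% of all tested genes were called. Over both backgrounds the Golm1 difference with the Ncoa5 deletion was 0.34 ± 0.32 (adjusted p = 0.523). It was -0.23 among mice with tags under 4300 and 1.13 among those over 4300, so its direction did not hold within both ranges. Against wild type Golm1 differed by 0.23 ± 0.45 in Ncoa5+/-Tip30+/- livers and 0.44 ± 0.45 in Tip30+/- livers. With the Tip30 deletion over both Ncoa5 backgrounds it gave -0.11 ± 0.32 (95% confidence interval -0.78 to 0.56, adjusted p = 0.927). The value for Tip30+/- against wild type rested on Tip30+/- 3 and was -0.10 without it.

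In Tip30+/- 3, the liver with 113 normalized counts of Golm1, markers of bile duct cells were also high. The mean log2 level of the 8 tested cholangiocyte markers was 1.79 above wild type there, against 0.05 to 0.38 in the other 3 Tip30+/- livers, 0.45 to 1.22 in Ncoa5+/-Tip30+/-, 0.60 to 1.02 in Ncoa5+/- and -0.33 to 0.34 in wild type. The keratin gene Krt19 stood at 459 normalized counts in that library, against 18.9 to 88.6 in the other 15. Summed over all 10 listed markers the level was 1481 to 2537 in Ncoa5+/-Tip30+/-, 1662 to 2034 in Ncoa5+/-, 1161 to 2403 in Tip30+/- and 990 to 1338 in wild type. A large part of these sums is Spp1, which averaged 1289, 1127, 683 and 546 in the same order. With the Ncoa5 deletion all 8 tested markers lay above 0 (median 0.62) and 1 of them (Spp1) was called. Krt19 (log2 0.18, adjusted p = 0.835 by limma), Krt7 (0.63, adjusted p = 0.223) and Epcam (0.73, adjusted p = 0.0805) did not pass. Whether these cells carry the Golm1 values was not tested.

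Golm1 shares 1297 exon bases with Naa35 on the opposite strand, which averaged 744 normalized counts, and since no strand marking is stated its level is uncertain. Naa35 itself gave -0.17 ± 0.10 with the Ncoa5 deletion (adjusted p = 0.298 by limma). Of 14 tested Golgi genes 1 fell with the Ncoa5 deletion and none rose, against 7.89% of all tested genes called in either direction. It was Gorasp1, which stacks Golgi cisternae, at -0.32 ± 0.08 (adjusted p = 0.0317 by limma), a call lost without the libraries low in Zhx2 (-0.23, adjusted p = 0.234), without a filter, and in 8 of 16 fits that each left out 1 library (adjusted p up to 0.0654). The genes most like Golm1 were Zfp704 (r = 0.78, rho = 0.82), the collagen receptor Ddr1 (r = 0.73, rho = 0.78) and the connexin Gja1 (r = 0.72, rho = 0.54). Without Tip30+/- 3 and Ncoa5+/- 4 the r of Gja1 was 0.43, so that it rests on those libraries.

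**Figure D3:**
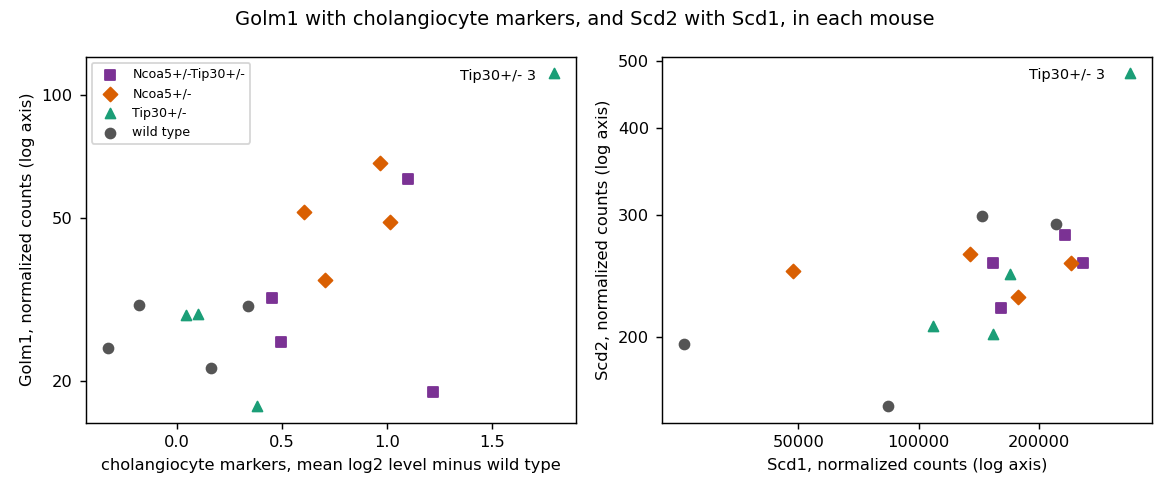
Left, Golm1 in normalized counts (log axis) against the mean log2 level of 8 cholangiocyte markers minus its wild-type mean; right, Scd2 against Scd1, both in normalized counts on log axes. Each point is 1 of 16 livers, and Tip30+/- 3 is the highest point in both panels, at 113 for Golm1 and 480 for Scd2.

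Cbr3 (ENSMUSG00000022947, chromosome 16, 93683215 to 93690990, plus strand) reduces carbonyl compounds, among them anthracycline drugs in humans. It stood at 35.7, 28.2, 19.9 and 14.4 normalized counts in Ncoa5+/-Tip30+/- livers, 31.5, 21.4, 16.7 and 39.0 in Ncoa5+/-, 14.5, 15.1, 22.4 and 15.4 in Tip30+/- and 18.4, 29.4, 18.7 and 11.2 in wild type. The means were 24.6 ± 9.34 in Ncoa5+/-Tip30+/-, 27.1 ± 10.03 in Ncoa5+/-, 16.8 ± 3.71 in Tip30+/- and 19.4 ± 7.53 in wild type (SD, n = 4 each). It rested on 13 to 40 reads per library, and the genotypes overlapped in every pair. The log2 difference with the Ncoa5 deletion was 0.47 ± 0.25 (95% confidence interval -0.06 to 0.99, adjusted p = 0.243 by limma, exact permutation p = 0.0706), and it was 0.55 and 0.47 in mice with tags under and over 4300. With the Tip30 deletion it was -0.14 ± 0.25 (adjusted p = 0.865).

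The neighbouring Cbr1 encodes the major carbonyl reductase and stood at 3937 to 14640 normalized counts, and the coding sequences of the pair are 77.2% identical. Their longest shared run, at coding bases 146 to 195 of both genes, is shown because reads that lie inside it cannot be assigned to either gene.
Cbr3 and Cbr1: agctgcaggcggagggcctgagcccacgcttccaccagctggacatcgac
At 50 bases that run gives 1 of 1121 windows of this length in the Cbr3 transcript. Cbr1 gave a log2 difference of 0.30 ± 0.20 with the Ncoa5 deletion (adjusted p = 0.347 by limma).

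Of 15 tested carbonyl reductases and targets of NRF2, the transcription factor of the oxidative stress response, 2 rose with the Ncoa5 deletion and none fell (median 0.32, against -0.01 over all tested genes, of which 7.89% were called in either direction). Srxn1, which repairs peroxiredoxins, stood at 1374 to 2312 normalized counts in Ncoa5+/-Tip30+/- livers and 1662 to 2195 in Ncoa5+/-, against 1140 to 1261 in Tip30+/- and 1206 to 1595 in wild type (log2 0.49 ± 0.10, adjusted p = 0.00734 by limma). The glutathione transferase gene Gstm3 rose by 1.13 ± 0.24 (adjusted p = 0.0121). The genes most like Cbr3 were the calcium channel gene Itpr3 (r = 0.86, rho = 0.82), the leukocyte integrin Itgb7 (r = 0.84, rho = 0.80) and Tmem176a (r = 0.82, rho = 0.85).

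Scd2 (ENSMUSG00000025203, chromosome 19, 44293674 to 44306864, plus strand) is the minor stearoyl-CoA desaturase of adult liver, where Scd1 prevails. It stood at 256, 280, 256 and 221 normalized counts in Ncoa5+/-Tip30+/- livers, 229, 264, 256 and 249 in Ncoa5+/-, 202, 208, 480 and 247 in Tip30+/- and 291, 299, 196 and 159 in wild type. Apart from Tip30+/- 3 the other 15 livers lay between 159 and 299, and no genotype stood apart. Means were 253 ± 24.5 in Ncoa5+/-Tip30+/-, 249 ± 15.1 in Ncoa5+/-, 284 ± 132 in Tip30+/- and 236 ± 69.6 in wild type (SD, n = 4 each). The log2 difference was 0.03 ± 0.17 with the Ncoa5 deletion (95% confidence interval -0.33 to 0.38, adjusted p = 0.941 by limma) and 0.12 ± 0.17 with the Tip30 deletion (95% confidence interval -0.24 to 0.47, adjusted p = 0.830), the narrowest intervals among the 6. The direction of the first flipped in DESeq2 (-0.03) and edgeR (-0.03). Tip30+/- against wild type gave 0.22 ± 0.24, which was -0.07 without Tip30+/- 3.

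Scd1 stood at 25873 to 337718 normalized counts, and Scd2 amounted to 0.0992% to 0.756% of it in single libraries. Their coding sequences are 90.4% identical, and 217 of 5406 windows of 50 bases in the Scd2 transcript (4.01%) occur in another gene, so the Scd2 level is uncertain where reads of Scd1 could be assigned to it. The longest shared stretch, 147 bases at coding positions 532 to 678 of Scd2, is shown for that reason.
Scd2 and Scd1: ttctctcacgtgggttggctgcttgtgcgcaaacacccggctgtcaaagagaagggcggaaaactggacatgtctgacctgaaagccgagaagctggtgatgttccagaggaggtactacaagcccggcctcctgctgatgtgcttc
Tip30+/- 3, with the highest Scd2, also had the highest Scd1 (337718 normalized counts), and in the other 15 libraries Scd1 reached up to 258114. Wild type 3, with the lowest Scd1 (25873), had Scd2 at 196. In wild type 1, 2 and 4 Scd2 stood at 291, 299 and 159, where Scd1 stood at 220010, 143930 and 83533. In Ncoa5+/-Tip30+/- 1 and Ncoa5+/- 4 Scd2 stood at 256 and 249, where Scd1 stood at 258114 and 48542. The treatment of such reads by the counting program is not stated in the labels, and its part in the Scd2 values was not tested.

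Of 18 tested genes of fatty acid desaturation and synthesis none passed with the Ncoa5 deletion (median 0.10, against -0.01 over all genes), and none passed in any comparison with wild type. The smallest p belonged to Fads3 (log2 0.64 ± 0.20, adjusted p = 0.0647 by limma) and Elovl2 (-0.25 ± 0.11, adjusted p = 0.178). The genes most like Scd2 were Krt19 (r = 0.85, rho = 0.48), the TGF-beta receptor Tgfbr2 (r = 0.78, rho = 0.79) and the matrix gene Fbln2 (r = 0.77, rho = 0.91). Without Tip30+/- 3 and wild type 4 the r of Krt19 was 0.37 and those of Tgfbr2 and Fbln2 were 0.77 and 0.82, so the first rests on those libraries.

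Peg3 (ENSMUSG00000002265, chromosome 7, 6703892 to 6730431, minus strand) stood at 96.5, 103, 96.2 and 304 normalized counts in Ncoa5+/-Tip30+/- livers, 67.6, 122, 126 and 292 in Ncoa5+/-, 341, 381, 77.8 and 121 in Tip30+/- and 103, 162, 350 and 378 in wild type. The levels fell into 2 ranges that genotype did not follow. In 6 livers Peg3 stood at 292 to 381 and in the other 10 at 67.6 to 162, and the lowest of the first was 1.80 times the highest of the second. The 6 comprised 1 Ncoa5+/-Tip30+/-, 1 Ncoa5+/-, 2 Tip30+/- and 2 wild-type livers.

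Peg3 averaged 149.9 ± 103 in Ncoa5+/-Tip30+/-, 152 ± 97.2 in Ncoa5+/-, 230.1 ± 153 in Tip30+/- and 248 ± 136 in wild type (SD, n = 4 each). With the Ncoa5 deletion the log2 difference of Peg3 was -0.61 ± 0.44 (95% confidence interval -1.56 to 0.33, adjusted p = 0.402 by limma, exact permutation p = 0.178), and with the Tip30 deletion -0.12 ± 0.44 (adjusted p = 0.947). Among mice with tags under and over 4300 the first was -0.88 and -0.47. Of 16 tested imprinted genes 1 fell and none rose with the Ncoa5 deletion, against 7.89% of all tested genes called in either direction. It was Slc38a4, an amino acid transporter, at -0.46 ± 0.11 (adjusted p = 0.0214 by limma), a call lost without the libraries low in Zhx2 (-0.43, adjusted p = 0.108) and without Ncoa5+/-Tip30+/- 2 (-0.41, adjusted p = 0.0504). The neighbouring imprinted gene Zim1 averaged 2.20 normalized counts and was not tested.

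The genes most like Peg3 were the mitochondrial carrier Slc25a33 (r = 0.86, rho = 0.78), the interleukin receptor gene Il15ra (r = 0.84, rho = 0.74) and Serpina11 (r = 0.82, rho = 0.73). Within genotypes Peg3 and Scd2 varied in opposite directions, with Pearson r = -0.72 (permutation p = 0.00344 within genotypes, adjusted over 15 pairs 0.0516) and Spearman rho = -0.62 (permutation p = 0.0206, adjusted 0.309). None of the 15 pairs among the 6 genes passed the adjustment, and r of this pair without Tip30+/- 3 and wild type 4 was -0.64.

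**Figure D4:**
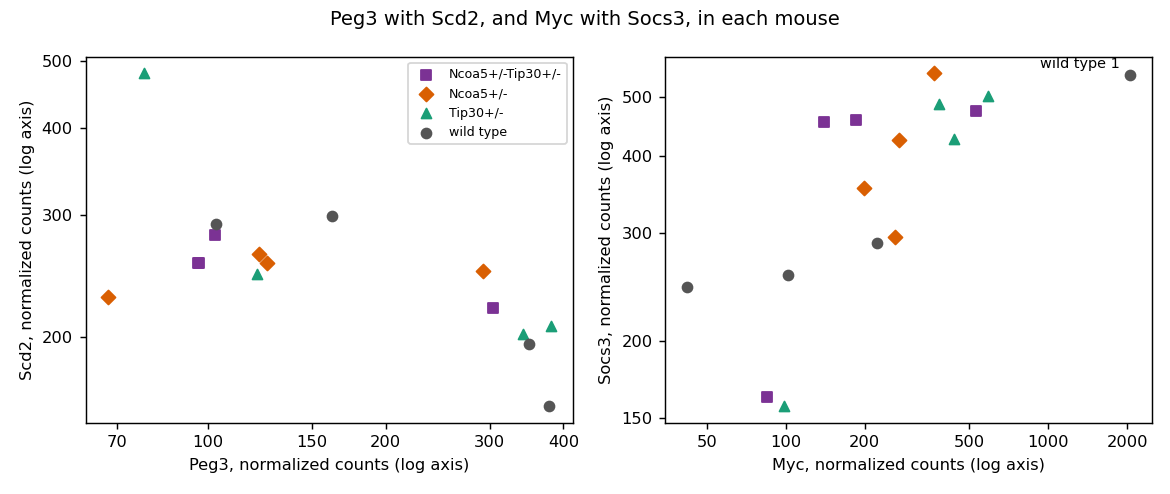
Left, Scd2 against Peg3; right, Socs3 against Myc, all in normalized counts on log axes, with 1 point per liver. Peg3 lies between 67.6 and 162 in 10 livers and between 292 and 381 in 6, and wild type 1 has the highest Myc, at 2056.

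Myc (ENSMUSG00000022346, chromosome 15, 61985391 to 61990374, plus strand) stood at 84.5, 529, 140 and 186 normalized counts in Ncoa5+/-Tip30+/- livers, 367, 261, 198 and 270 in Ncoa5+/-, 385, 592, 98.2 and 439 in Tip30+/- and 2056, 102, 42.1 and 224 in wild type. The lowest and the highest level of all 16 were both in wild-type livers, a 48.8-fold range, and the genotypes overlapped in every pair. Means were 235 ± 200.4 in Ncoa5+/-Tip30+/-, 274 ± 69.96 in Ncoa5+/-, 378 ± 206 in Tip30+/- and 606 ± 970 in wild type (SD, n = 4 each). The log2 difference was -0.22 ± 0.71 with the Ncoa5 deletion (95% confidence interval -1.75 to 1.32, adjusted p = 0.876 by limma) and 0.02 ± 0.71 with the Tip30 deletion (adjusted p = 0.995), so that a change of several-fold in either direction lies inside the interval. Wild type 1 decides these values. Without it Myc stood above wild type by 0.89 in Ncoa5+/-Tip30+/-, 1.43 in Ncoa5+/- and 1.66 in Tip30+/- on the log2 scale, against -0.20, 0.33 and 0.57 with it, and none of the 6 values passed. On the recovered reads DESeq2 turned the direction for Ncoa5+/- (-1.14) and Tip30+/- (-0.68) against wild type.

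Among 14 tested genes of the MYC network 1 rose with the Ncoa5 deletion, against 7.89% of all tested genes called in either direction. Pvt1, a long non-coding RNA gene beside Myc on chromosome 15 (62037986 to 62378096), stood at 29.8, 48.9, 46.8 and 22.7 normalized counts in Ncoa5+/-Tip30+/- livers and 89.0, 69.2, 28.1 and 54.5 in Ncoa5+/-. It stood at 11.9, 13.1, 6.81 and 5.12 in Tip30+/- livers and 31.7, 26.3, 25.3 and 6.02 in wild type. Of the 8 livers with the deletion 5 were above all without it, at a log2 difference of 1.70 ± 0.33 (adjusted p = 0.00634 by limma, exact permutation p = 0.000816). Mycn, a close relative of Myc, stood at 40.2 to 84.9 normalized counts in Ncoa5+/-Tip30+/- livers, 28.2 to 51.0 in Ncoa5+/-, 4.86 to 80.2 in Tip30+/- and 5.11 to 17.8 in wild type, and its difference with the Ncoa5 deletion did not pass (1.28 ± 0.44, adjusted p = 0.0830).

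Of 28 tested MYC targets in ribosome synthesis and metabolism none passed with the Ncoa5 deletion (median -0.09). Against wild type 2 fell in Ncoa5+/-Tip30+/- livers, Pus7 (-0.55 ± 0.13, adjusted p = 0.0354 by limma) and Slc3a2 (-0.33 ± 0.08, adjusted p = 0.0412), both lost without the libraries low in Zhx2 (adjusted p = 0.229 and 0.142) and without a filter (0.0716 and 0.114). The Slc3a2 call was also lost in edgeR (adjusted p = 0.0529). Of 16 fits that each left out 1 library, 4 lost the Pus7 call and 10 the Slc3a2 call (adjusted p up to 0.118 and 0.134). Genes most like Myc were Foxq1 (r = 0.79, rho = 0.71) and the cytokine-induced Cish (r = 0.74, rho = 0.84) and Socs3 (r = 0.74, rho = 0.81). Without wild type 1 and 3 their r was 0.63, 0.83 and 0.78.

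Against wild type none of the 6 genes was called in Ncoa5+/-Tip30+/- livers (2.67% of all tested genes were called) or in Tip30+/- livers (0.0131%). None was called for Ncoa5+/-Tip30+/- against Ncoa5+/- (0.0197%) or against Tip30+/- (3.07%), with the Tip30 deletion over both Ncoa5 backgrounds (0.131%), or in the interaction, which asks whether 1 deletion changes the effect of the other (0%, with 4.26% at an unadjusted p under 0.05 and 1 gene called by DESeq2). The interaction of Ly6d was -1.16 ± 1.31 on the log2 scale, and those of Golm1 and Myc were -1.09 ± 0.64 and -1.10 ± 1.42. Comparisons that share wild-type or Ncoa5+/-Tip30+/- livers are not independent of each other.

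**Figure D5:**
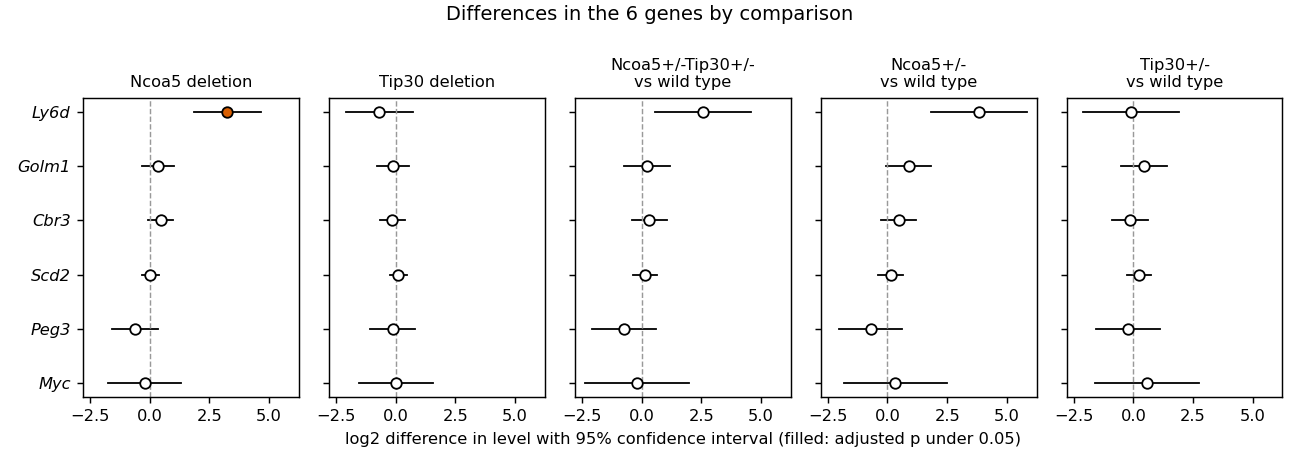
Log2 difference in level of the 6 genes with its 95% confidence interval, in 5 comparisons; the first 2 panels compare 8 livers with and 8 without a deletion, the others 4 with 4. The 1 filled point, Ly6d with the Ncoa5 deletion at 3.25, passed at an adjusted p under 0.05, and the widest intervals belong to Myc.

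Other markers of liver tumours and fetal liver gave calls in a few genes. Of 30 listed genes 24 were tested, and with the Ncoa5 deletion 2 rose and 1 fell (median 0.59, against -0.01 over all tested genes, of which 7.89% were called). Spp1, which encodes osteopontin, stood at 832, 1708, 1542 and 1072 normalized counts in Ncoa5+/-Tip30+/- livers and 1218, 1191, 841 and 1258 in Ncoa5+/-, against 511 to 939 in Tip30+/- and 444 to 686 in wild type (log2 0.97 ± 0.16, adjusted p = 0.00225 by limma). Ncoa5+/-Tip30+/- livers were also called higher in Spp1 than wild type (1.20, adjusted p = 0.0137) and than Tip30+/- (0.89, adjusted p = 0.0458). Both of these calls were lost without the libraries low in Zhx2. In fits that each left out 1 library they were lost in 2 and 9 of 16. Top2a, a topoisomerase of dividing cells, rose by 1.07 ± 0.28 (adjusted p = 0.0301 by limma). That call was lost without any 1 of Ncoa5+/-Tip30+/- 2, Ncoa5+/- 1, 2 and 4, Tip30+/- 1 and 4 and wild type 4 (adjusted p up to 0.0709). Glul, the glutamine synthetase of hepatocytes around the central vein, averaged 14593 ± 1127 normalized counts in Ncoa5+/-Tip30+/- livers and 19761 ± 4347 in Ncoa5+/-, against 23591 ± 3422 in Tip30+/- and 22490 ± 4088 in wild type (SD, n = 4 each). It fell with the Ncoa5 deletion averaged over both Tip30 backgrounds (log2 -0.44 ± 0.11, adjusted p = 0.0241 by limma), a call lost without Tip30+/- 2 (-0.40, adjusted p = 0.0519). Its Ncoa5+/- livers (15961 to 25938) overlapped with wild type (19301 to 28448), and that pair was not called. Ncoa5+/-Tip30+/- livers were called lower than wild type (-0.61, adjusted p = 0.0445 by limma) and than Tip30+/- (-0.68, adjusted p = 0.0284). The call against wild type was lost in edgeR, without the libraries low in Zhx2 and in 11 of 16 fits that each left out 1 library. The call against Tip30+/- was lost in 6 of these 16 fits.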

How the data were processed

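RNA-seq libraries of 16 mouse livers, 4 per genotype, were grouped by the genotype in the labels. Per the submitters' processing notes, the authors used Trimmomatic 0.36, STAR 2.6.0c, genome build GRCm38 and DESeq2 1.28.1. No label names the counting program, the annotation release or the use of strand. The deposited values are normalized counts, a signal made by the authors by dividing the reads of each gene by a size factor of the library. All values of every library were whole reads times 1 step (tolerance 1e-04), and these reads, 24740706 to 37939978 per library, went into the count-based alternatives.

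Tests used limma 3.58.1 in R 4.3.3 (trend and robust) on log2(value + 1), for 15263 of 30199 genes with a mean of at least 10. The 4 group means were fitted in 1 model and p-values were adjusted by Benjamini-Hochberg over all tested genes, with a threshold of 0.05. A fold change on this scale understates the change of genes with low values. The Ncoa5 deletion and the Tip30 deletion are each averaged over both backgrounds of the other gene. Exact permutation tests were 2-sided, with 70 arrangements between groups of 4 (smallest p 0.0286) and 4900 within backgrounds (smallest p 0.000408). Alternatives were TMM scaling, no filter, a filter at 50, pseudocounts of 0.5 and 5, DESeq2 1.42.0 and edgeR 4.0.16, the mouse tag as a covariate, and leaving out each library or the 4 low in Zhx2. The procedure was also run on simulated data, for the Ncoa5 deletion over both backgrounds and with changes only in genes with a mean of at least 50. That run did not cover changes in genes as low as Golm1 and Cbr3 or single pairs of genotypes, and its outcome is not given here. The plan named limma for normalized values and edgeR if the values turned out to be counts. The deposited values were normalized and limma was kept, although reads could be recovered from them, with edgeR among the alternatives.

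The 6 genes and the gene lists were chosen with earlier results of these data known. All 6 are named in every comparison. Of each list except that of p53 targets the text names genes that passed, or else up to 2 of smallest p. Where more than 4 passed, it names the 4 of smallest p. Of 21 tested p53 targets 18 rose and 2 fell with the Ncoa5 deletion, against 7.89% of all tested genes called. From that list only Cdkn1a is named. For each of the 6 genes the text names the 3 of highest correlation among genes with a mean of at least 50. Further genes (Cbr1, Krt19, Naa35, Scd1, Zim1, Them6, Jrk, Ly6c1, Cdkn1a and others given for comparison) were named after their values were seen. Sequences come from GENCODE transcripts of GRCm38.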

Additional observations from a re-analysis of the deposited data

Results flagged for a closer look

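In groups of 4 mice, 5 of 24 gene and genotype combinations had a highest sample far from the other 3, where the gap exceeded Dixon's 95% critical value for the gap over the group's range. Chance flags about 1 in 20 groups where values are normally distributed. The rule was applied to normalized counts and not to the log2 scale of the tests, so that rate need not hold here. The library Tip30+/- 3 accounted for 3 of the 5 flags, with Golm1 at 113, Cbr3 at 22.4 and Scd2 at 480 normalized counts. For Cbr3 this was 23 reads, against 17, 15 and 15 in the other Tip30+/- livers. In Tip30+/- 3 the cholangiocyte marker mean was the highest of 16, and its part in the 3 flagged values was not tested. Peg3 stood at 304 normalized counts in Ncoa5+/-Tip30+/- 4. Myc stood at 2056 normalized counts in wild type 1, where Foxq1 was also the highest of 16 libraries, at 1871.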

How the results depend on the processing

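No paired analysis was possible because the labels give no replicate numbers shared between genotypes. The rise of Ly6d with the Ncoa5 deletion kept its direction in all alternatives run (2.87 to 3.81 on the log2 scale) and passed in all except that without the libraries low in Zhx2, where 0 of the 6 genes passed, against 1. Leaving out each library gave 1 to 1 genes called there, and 0 to 1 for Ncoa5+/- against wild type and for Ncoa5+/-Tip30+/- against wild type and against Tip30+/-, where DESeq2 called 1, against 0.

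Counts over all genes moved by over 1.5 times in several settings. With the Ncoa5 deletion 1205 genes were called, against 1937 with the mouse tag covariate, 602 without the libraries low in Zhx2 and 610 to 1602 leaving out a library. For Ncoa5+/- against wild type 85 were called, against 257 by DESeq2, 29 without the libraries low in Zhx2 and 45 to 90. For Ncoa5+/-Tip30+/- against wild type 407 were called, against 1044 by DESeq2, 697 with the tag, 121 without the libraries low in Zhx2 and 88 to 846. Against Tip30+/- the count was 469, with 1118 by DESeq2, 1344 with the tag and 107 to 764, and against Ncoa5+/- it was 3, with 32, 1 without the libraries low in Zhx2 and 1 to 10. For the Tip30 deletion it was 20, with 34 unfiltered, 246 by DESeq2, 51 with the tag, 5 without the libraries low in Zhx2 and 15 to 114, and for Tip30+/- against wild type 2, with 43 by DESeq2, 6 without the libraries low in Zhx2 and 1 to 8.

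Directions that turned belonged to differences that did not pass. Without the libraries low in Zhx2, Cbr3 gave 0.29 for Ncoa5+/-Tip30+/- against Ncoa5+/-, 0.23 with the Tip30 deletion and 0.18 for Tip30+/- against wild type, Golm1 0.12 and Ly6d 0.0020 with the Tip30 deletion, Ly6d 0.20 for Tip30+/- against wild type, Myc 0.22 with the Ncoa5 deletion and 0.92 for Ncoa5+/-Tip30+/- against wild type, and Peg3 0.073 and Scd2 -0.043 for Ncoa5+/-Tip30+/- against Ncoa5+/-. DESeq2 and edgeR gave Golm1 0.13 and 0.13 with the Tip30 deletion, Ly6d 0.11 and 0.11 for Tip30+/- against wild type, Scd2 -0.033 and -0.029 with the Ncoa5 deletion, and Myc 0.47 and 0.49 in the interaction, -1.14 and -1.14 for Ncoa5+/- against wild type, -0.44 and -0.44 with the Tip30 deletion and -0.68 and -0.69 for Tip30+/- against wild type. Myc gave -0.066 with the Tip30 deletion and the tag covariate, and Cbr3 -0.0063 in the interaction with TMM scaling. The cause was not tested.

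Leaving out each library in turn, values crossed 0 for Cbr3 in the interaction (-0.21 to 0.23), Ncoa5+/-Tip30+/- against Ncoa5+/- (-0.34 to 0.076) and Tip30+/- against wild type (-0.37 to 0.072). For Golm1 they crossed in Ncoa5+/-Tip30+/- against Tip30+/- (-0.54 to 0.34) and wild type (-0.092 to 0.47), the Tip30 deletion (-0.38 to 0.059) and Tip30+/- against wild type (-0.10 to 0.77), and for Ly6d in the last (-0.51 to 0.20). Myc crossed with the Ncoa5 deletion (-0.60 to 0.33), the Tip30 deletion (-0.36 to 0.56), and for Ncoa5+/- (-0.43 to 1.43), Tip30+/- (-0.20 to 1.66) and Ncoa5+/-Tip30+/- (-0.96 to 0.89) against wild type. Peg3 crossed in the interaction (-0.22 to 0.57), the Tip30 deletion (-0.32 to 0.094), Tip30+/- against wild type (-0.57 to 0.21) and Ncoa5+/-Tip30+/- against Ncoa5+/- (-0.42 to 0.36). Scd2 crossed in all 8 comparisons: the interaction (-0.33 to 0.083), the Ncoa5 (-0.061 to 0.17) and Tip30 deletion (-0.024 to 0.18), Ncoa5+/- (-0.047 to 0.25), Tip30+/- (-0.065 to 0.35) and Ncoa5+/-Tip30+/- (-0.028 to 0.27) against wild type, and Ncoa5+/-Tip30+/- against Ncoa5+/- (-0.032 to 0.082) and Tip30+/- (-0.21 to 0.21). Golm1 and Cbr3 did not pass the filter at 50 and have no value there. With 4 mice per genotype and few reads for Cbr3 and Golm1, the intervals of the differences limit what could be seen.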

Other observations

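Peg3 levels can be set beside the mouse tags in the sample titles. The 6 livers at 292 to 381 normalized counts carried the tags 4184, 4187, 4361, 4382, 4383 and 4530, and the 10 at 67.6 to 162 carried tags from 4207 to 4359. All 4 genotypes occurred in both sets. The labels do not say what the tags stand for, and the relation was not tested.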
